A study of Mus musculus with 12 samples.

Results

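The 6 nuclear receptors that bind retinoic acid or pair with the receptor that does, Rara, Rarb, Rarg, Rxra, Rxrb and Rxrg, were followed in J1 mouse embryonic stem cells after 24 h of retinoic acid (RA) or vitamin C (VC). Members were chosen by name, and every array probe whose transcript accession belonged to one of the 6 genes was taken. On the arrays of RA and its control these were 10 of 55681 probes, and all 6 genes stood among 20660 named genes. On the arrays of VC and its control they were 9 of 41174 probes, and all 6 genes stood among 18749 named genes. Every one of these 19 probe measurements was well above background on all 6 arrays of its design, so none was lost to the filter on dim probes.

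The series asked which genes VC and RA regulate in J1 cells, a pluripotent mouse stem cell line. Total RNA of 12 samples, 3 in each of 4 groups, was labelled with Cy3 and hybridised to Agilent one-colour arrays. One group received RA at a final 1 µM and its control received 1 µL of DMSO, the solvent. A further group received VC, labelled as 50 µg with no volume, and its control received 1 µL of ddH2O. All 4 groups grew without feeder cells on gelatin, in serum replacement medium with LIF at 1000 U/mL, a cytokine that supports self-renewal. RA was therefore added while LIF was still present. J1 is 1 line, and nothing in the labels says that the 3 samples of a group were separate cultures, so the spread behind each p-value may be only technical.

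Retinoic acid is made inside cells from vitamin A and binds the retinoic acid receptors RARα, RARβ and RARγ, encoded by Rara, Rarb and Rarg. Each RAR works on DNA as a pair with a retinoid X receptor (RXRα, RXRβ or RXRγ), most often at direct repeats of a hexamer half-site. Without ligand the pair holds corepressors such as NCOR1, and with ligand it exchanges them for coactivators such as the p160 proteins. RXRs are also the partners of other nuclear receptors, among them the vitamin D, thyroid hormone and PPAR receptors.

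Rarb is the textbook receptor gene that RA induces through its own promoter, and that promoter is shown for this reason. The window below holds the 250 bases before the transcript start in the RefSeq promoter table, GRCm38.p6 chr14:16575477-16575726, read along the minus strand on which the gene lies. Capitals mark the half-sites of a direct repeat with 5 bases between them (DR5), which begins 53 bases upstream of the start.

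Rarb: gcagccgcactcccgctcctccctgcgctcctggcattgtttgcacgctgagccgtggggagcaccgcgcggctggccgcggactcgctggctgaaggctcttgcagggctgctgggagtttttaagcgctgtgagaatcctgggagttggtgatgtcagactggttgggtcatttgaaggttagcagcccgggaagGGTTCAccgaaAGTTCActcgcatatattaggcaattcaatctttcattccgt

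The half-sites searched were AGGTCA with its variant AGTTCA as well as GGGTCA with its variant GGTTCA on both strands of every 300-base RefSeq promoter window. A DR5 was found in 32 of 32851 windows, or 0.0974%. The same half-sites 1 base apart (DR1) were found in 0.222% of windows and 2 bases apart (DR2) in 0.268%. Of the 13 windows that the 6 receptor genes have, the Rarb window alone held a DR5, and none held a DR1 or a DR2. These matches describe letters in the windows and are not evidence of binding.

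The levels below are log2 signals relative to the 75th percentile of the same array, so 0 is the signal of a probe at that percentile. They compare 1 probe between groups and never 1 probe with another, because probes differ in how brightly they hybridise. Differences are treated minus control on this log2 scale, with standard errors (SE) from limma. A probe was called where its limma p, adjusted by Benjamini and Hochberg over all probes tested on its design, was under 0.05.

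After 24 h of RA, Rarb was strongly higher, Rarg strongly lower and Rara moderately lower than in DMSO. The RXR genes changed less than Rarb and Rarg, and the probes of Rxrg changed in opposite directions. All 10 probes were called, 6 higher and 4 lower, and in all 10 the groups did not overlap. That count has to be read against the whole array, since 36.0% of the 37050 probes tested were called higher, 35.5% were called lower, and 71.6% were called in either direction. Groups that did not overlap were as common, with RA wholly above DMSO for 38.5% of probes tested and wholly below for 38.6%. A call alone therefore says little about a receptor here, and the size of a change says more. In bulk RNA, fewer cells with a transcript and less of it per cell cannot be told apart.

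Rarb encodes the receptor whose own gene is among the direct targets of RA. Its probe A_55_P1962154 (NM_011243) lay at -1.14, -1.19 and -1.23 in the DMSO samples and at 3.09, 3.08 and 3.09 in the RA samples. All RA samples were far above all DMSO samples. The difference was 4.27 (SE 0.07, limma adjusted p = 4.75e-07), or 19.4-fold, and 98.0% of all probes tested differed by less. The second Rarb probe, A_55_P2084807, matched the same transcript. It read -3.10, -3.39 and -2.95 in DMSO and 0.17, 0.60 and 0.09 in RA, again with a wide gap between the groups. Its difference was 3.43 (SE 0.18, limma adjusted p = 1.79e-05), or 10.8-fold.

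Rarg encodes RARγ, a main RAR of the early embryo. Its single probe on this design, A_55_P2151056 (NM_011244), read 5.30, 5.04 and 5.15 in DMSO and 1.49, 1.61 and 1.40 in RA. The RA samples were all lower, and their range did not approach that of DMSO. The difference was -3.66 (SE 0.10, limma adjusted p = 1.69e-06), a 12.7-fold lower level, and 96.7% of probes tested differed by less.

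Rara encodes RARα, the most widely expressed RAR. Both of its probes matched NM_001177302 and both were lower in RA. A_55_P2095342 read 2.16, 2.16 and 2.20 in DMSO and 1.05, 1.03 and 0.86 in RA. Its difference was -1.20 (SE 0.08, limma adjusted p = 4.62e-05), a 2.29-fold lower level. A_55_P2095345 read 4.68, 4.52 and 4.56 in DMSO and 3.74, 3.79 and 3.85 in RA, with no overlap. Its difference was -0.80 (SE 0.08, limma adjusted p = 0.000216), a 1.74-fold lower level. Within each array the probe pair was compared by subtraction, and the resulting difference of differences was -0.40 (exact two-sided permutation p = 0.1). That is the smallest p that 3 against 3 samples allow, so such a design cannot reach 0.05.

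**Figure D1:**
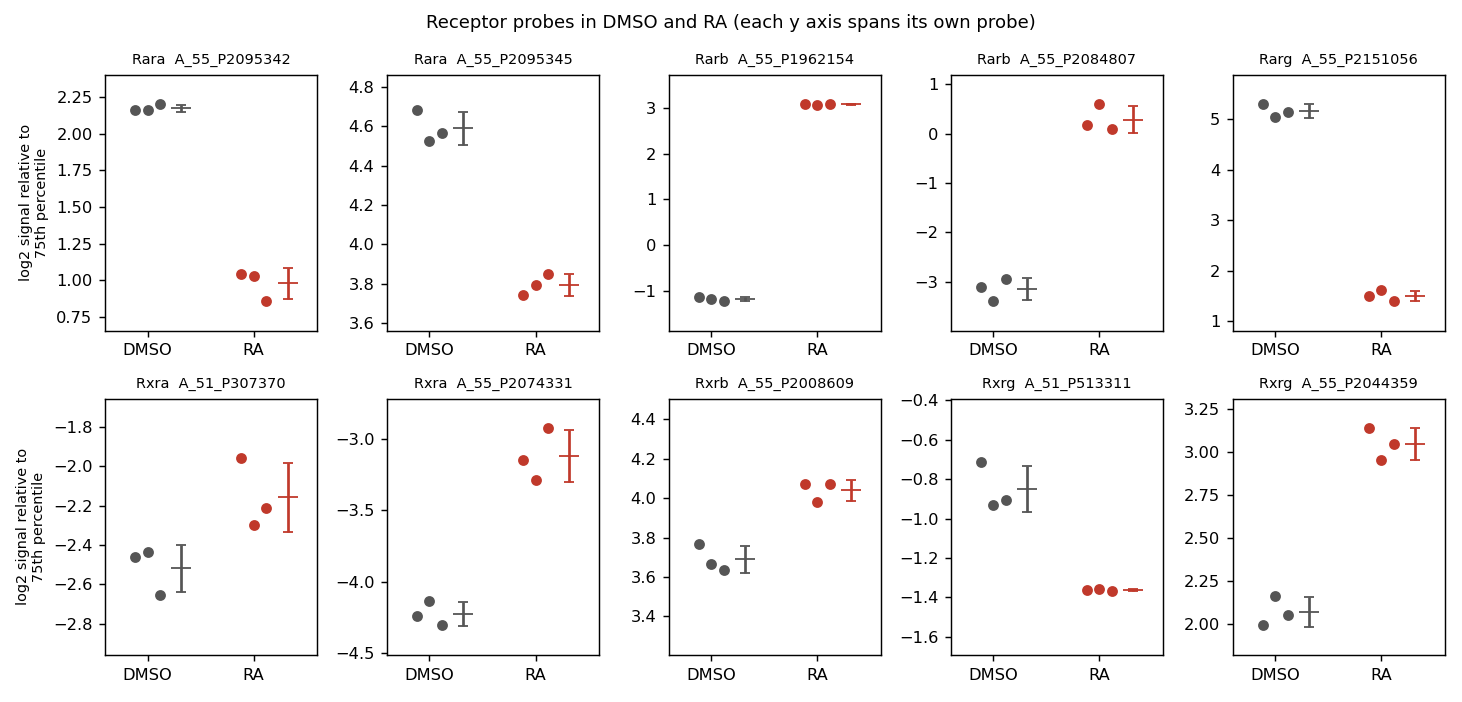
Each panel plots 1 receptor probe on the RA and DMSO arrays, with its log2 signal relative to the array's 75th percentile on a y axis that spans that probe only. Points are the 3 samples of a group, and the bars are the mean and 1 SD. No panel has overlapping groups, and the Rarb and Rarg panels have the widest gaps (4.27 and -3.66).

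The genes of the RXR partners moved less than Rarb and Rarg. Rxra encodes RXRα, the RXR of most tissues, and its 2 probes match NM_011305. A_55_P2074331 read -4.24, -4.14 and -4.31 in DMSO and -3.15, -3.29 and -2.93 in RA. All RA samples were higher, by 1.10 (SE 0.11, limma adjusted p = 0.000266), or 2.15-fold. A_51_P307370 read -2.46, -2.44 and -2.66 in DMSO and -1.96, -2.30 and -2.21 in RA. These ranges were close but separate, and the difference was 0.36 (SE 0.12, limma adjusted p = 0.0325), or 1.28-fold. Its call was lost without DMSO replicate 1, 2 or 3 or RA replicate 1, each left out alone.

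Rxrb encodes RXRβ and had 1 probe on this design, A_55_P2008609 (NM_001205214). It read 3.77, 3.67 and 3.64 in DMSO and 4.07, 3.98 and 4.07 in RA. The RA samples were all higher, by 0.35 (SE 0.07, limma adjusted p = 0.00589), or 1.28-fold. This small rise depended on how the arrays were scaled. The 75th percentile itself was 607.8 to 612.1 intensity units on the DMSO arrays and 287.7 to 388.1 on the RA arrays. Before scaling, the Rxrb probe read 7554 to 8323 intensity units in DMSO and 4839 to 6119 in RA, which is lower and not higher. For Rxra A_51_P307370 the unscaled signal was likewise lower, at 96.4 to 112 in DMSO and 62.1 to 90.5 in RA. Rxra A_55_P2074331 stayed higher before scaling, at 30.7 to 34.6 in DMSO and 37.8 to 39.7 in RA, but by less than after it.

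Rxrg encodes RXRγ, an RXR best known from muscle and the nervous system, and its 2 probes match NM_009107 but went opposite ways. A_55_P2044359 read 1.99, 2.16 and 2.06 in DMSO and 3.14, 2.95 and 3.05 in RA, a rise of 0.98 (SE 0.09, limma adjusted p = 0.000139), or 1.97-fold. A_51_P513311 read -0.71, -0.93 and -0.91 in DMSO and -1.36, -1.36 and -1.37 in RA, and fell by 0.51 (SE 0.08, limma adjusted p = 0.00195), or 1.43-fold. The probes thus gave no single direction for the gene, and both directions were kept under every scaling tried. Before scaling, A_55_P2044359 overlapped, at 2436 to 2723 intensity units in DMSO and 2379 to 3098 in RA. With the spike-in controls its rise was 0.49 (limma adjusted p = 0.0371). A_51_P513311 was lower before scaling as well, at 319 to 373 in DMSO and 111 to 152 in RA. The difference of differences of the 2 Rxrg probes was -1.49 (exact two-sided permutation p = 0.1, the smallest possible), which was larger than the spread between samples. For Rxra the probes rose by unequal amounts, with a difference of differences of -0.74 (exact two-sided permutation p = 0.1). For Rarb it was 0.84 (exact two-sided permutation p = 0.1). Probe positions along the transcripts were not used here, and what makes probes of 1 gene differ was not tested.

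**Figure D2:**
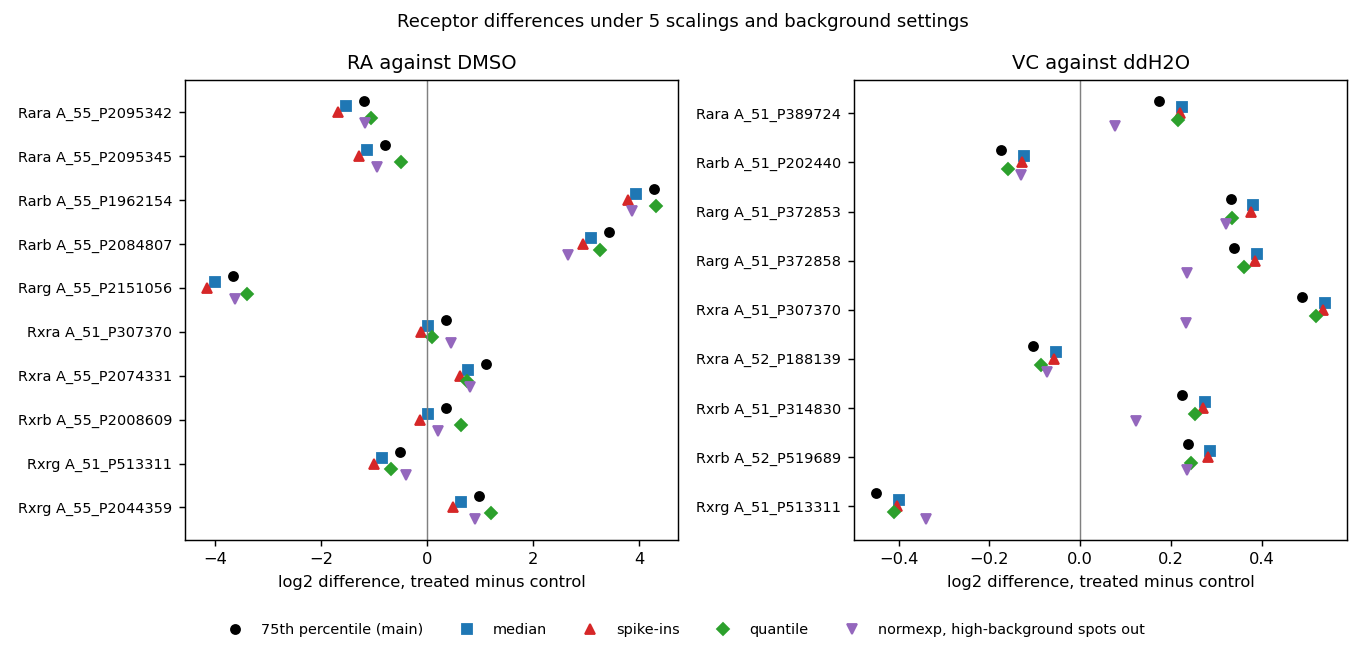
Log2 differences of each receptor probe, RA against DMSO on the left and VC against ddH2O on the right, under the 75th percentile scaling used here and 4 other settings (median, spike-in controls, quantile, and a normexp background correction). The normexp shown leaves out spots of high local background, a choice made after seeing the data, and is not the planned normexp. On the left Rarb stays above 0 and Rara and Rarg below 0 in all 5, while Rxra A_51_P307370 and Rxrb cross 0 with the spike-in controls.

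The plot of differences by scaling shows which calls rest on the choice. The median difference over all probes in RA was 0.03 with the 75th percentile, -0.31 with the array median and -0.46 with the spike-in controls. With the array median, Rxrb stood at 0.01 and Rxra A_51_P307370 at 0.02, and neither was called. With the spike-in controls they stood at -0.13 and -0.12, again not called. Rxra A_51_P307370 was also lost with quantile normalization, at 0.09, and with the authors' series values, again at 0.09. Rxrb was larger and called in both of these, at 0.64 with quantile normalization and 0.65 with the series values. The other 8 probes kept their direction and their call in every alternative that was run for them. The DMSO arrays shared 1 slide and the RA arrays shared another, so slide and treatment cannot be told apart in any of these RA values.

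**Figure D3:**
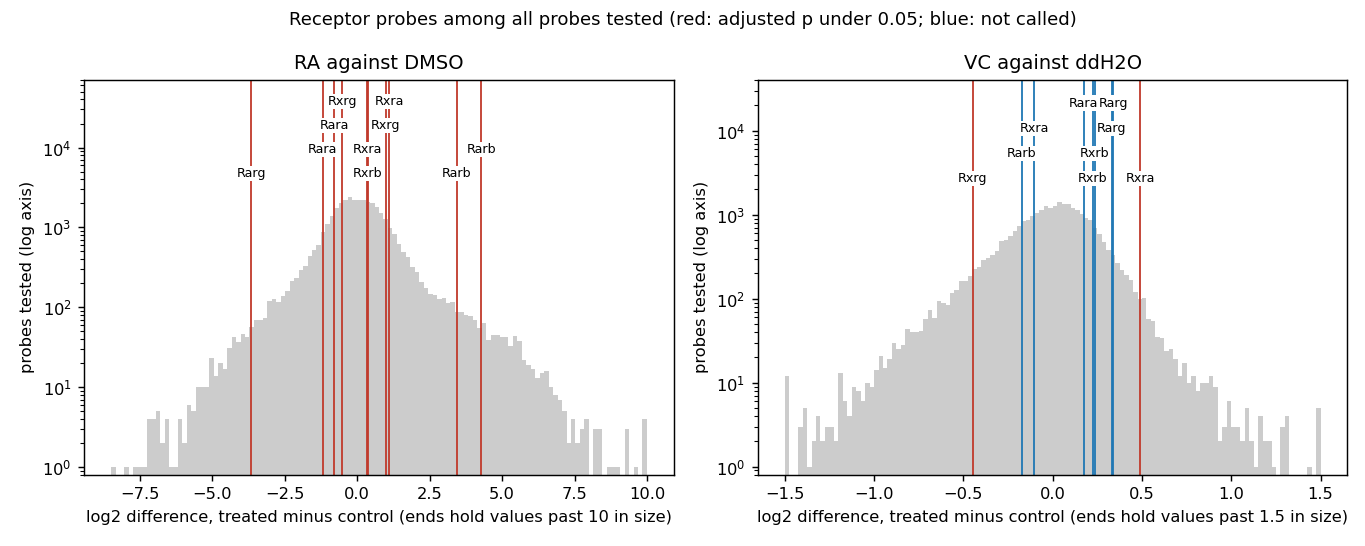
Histograms of the log2 differences of all probes tested (37050 for RA and 28160 for VC, counts on a log axis), with a vertical line for each receptor probe, red where called and blue where not. In RA, Rarb lies far into the right tail and Rarg into the left, while the RXR probes lie in the body of the distribution.

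In VC against ddH2O the receptor genes changed far less. Of 9 probes, 1 of Rxra was higher and 1 of Rxrg was lower, each by less than 1.5-fold, and 7 were not called. No RAR probe was called. Of the 28160 probes tested, 2.97% were called higher and 5.32% lower, or 8.28% in either direction. The groups did not overlap for 5 of the 9 receptor probes, beside 18.4% of all probes tested with VC wholly above and 18.2% wholly below. The median size of a difference over all probes was 0.148 in VC and 0.667 in RA.

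Rxra A_51_P307370, the probe that both designs share, read -2.74, -2.72 and -2.73 in ddH2O and -2.24, -2.18 and -2.28 in VC. The groups were tight and well apart, with a difference of 0.49 (SE 0.06, limma adjusted p = 0.0161), or 1.40-fold. The other Rxra probe, A_52_P188139, did not show it. That probe read -0.07, -0.16 and -0.14 in ddH2O and -0.15, -0.14 and -0.40 in VC, and its difference of -0.10 (SE 0.09, limma adjusted p = 0.476) was within the spread. The probes' difference of differences was 0.59 (exact two-sided permutation p = 0.1, the smallest possible).

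Rxrg A_51_P513311, also on both designs, read -1.40, -1.45 and -1.56 in ddH2O and -2.00, -1.79 and -1.97 in VC. All VC samples were lower, with a difference of -0.45 (SE 0.08, limma adjusted p = 0.0327), a 1.37-fold lower level. The Rxrg probe that rose in RA is not on this design. On the arrays of RA and DMSO the same probes had differences of 0.36 for Rxra and -0.51 for Rxrg, the same directions as in VC. The designs were normalized apart, and the sizes were not compared by a test.

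Among the RAR genes in VC, the 2 Rarg probes stood nearest to a call. A_51_P372853 read -0.16, -0.21 and 0.07 in ddH2O and 0.21, 0.13 and 0.36 in VC, a difference of 0.33 (95% confidence interval 0.09 to 0.58, limma adjusted p = 0.0938). A_51_P372858 read -1.45, -1.24 and -1.09 in ddH2O and -0.88, -1.04 and -0.85 in VC, a difference of 0.34 (95% confidence interval 0.08 to 0.60, limma adjusted p = 0.105). In both, every VC sample lay above every ddH2O sample. Their differences were nearly equal, at a difference of differences of -0.01 (exact two-sided permutation p = 1). With a trend in the variance model, A_51_P372853 was called.

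Rarb probe A_51_P202440 was spotted 10 times on each array and has the most spots of any receptor probe. Its array means were -0.85, -0.75 and -0.89 in ddH2O and -1.06, -1.00 and -0.95 in VC. Every VC mean was lower, but the difference of -0.17 (95% confidence interval -0.34 to -0.01, limma adjusted p = 0.151) did not pass the test, and under the planned normexp background correction it stood at 0.12. Without spots of high local background, that correction gave -0.13. The SD of the 10 spots within an array ran from 0.024 to 0.077, so single spots of the groups overlapped. Spots of 1 array share a sample and are not replicates.

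**Figure D4:**
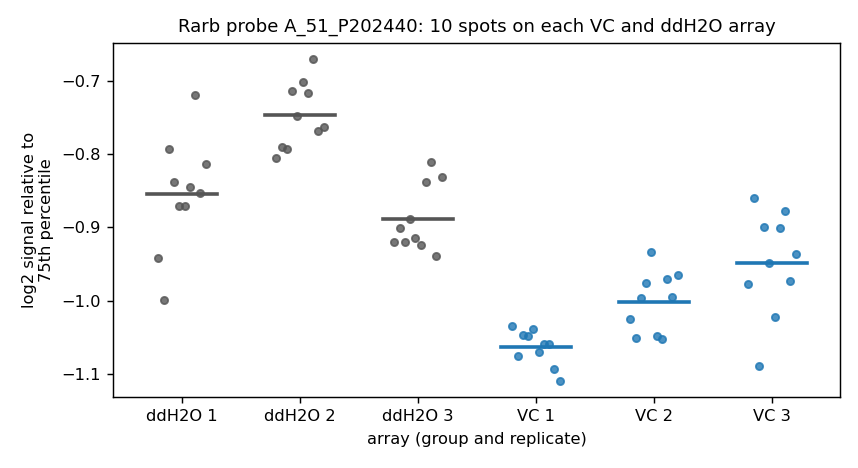
Each point is 1 of the 10 spots of Rarb probe A_51_P202440 on an array of ddH2O or VC, as log2 signal relative to the array's 75th percentile, and the line is the array mean. The 3 VC means (-1.06, -1.00 and -0.95) lie below the 3 ddH2O means (-0.85, -0.75 and -0.89), while spots of different groups overlap.

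Rara and Rxrb did not differ detectably in VC. Rara A_51_P389724 (NM_009024) read -3.60, -3.65 and -3.41 in ddH2O and -3.44, -3.64 and -3.05 in VC, with overlapping groups and a difference of 0.17 (95% confidence interval -0.21 to 0.56, limma adjusted p = 0.51). Rxrb A_52_P519689 read 0.57, 0.37 and 0.67 in ddH2O and 0.74, 0.67 and 0.91 in VC, a difference of 0.24 (95% confidence interval -0.02 to 0.49, limma adjusted p = 0.202). Rxrb A_51_P314830 read -2.30, -2.25 and -2.02 in ddH2O and -1.89, -2.09 and -1.92 in VC, a difference of 0.22 (95% confidence interval -0.02 to 0.47, limma adjusted p = 0.203). The intervals of all 3 probes include 0 and also allow rises of up to 0.47 or more. The Rxrb probes moved alike, with a difference of differences of -0.01 (exact two-sided permutation p = 0.9).

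**Figure D5:**
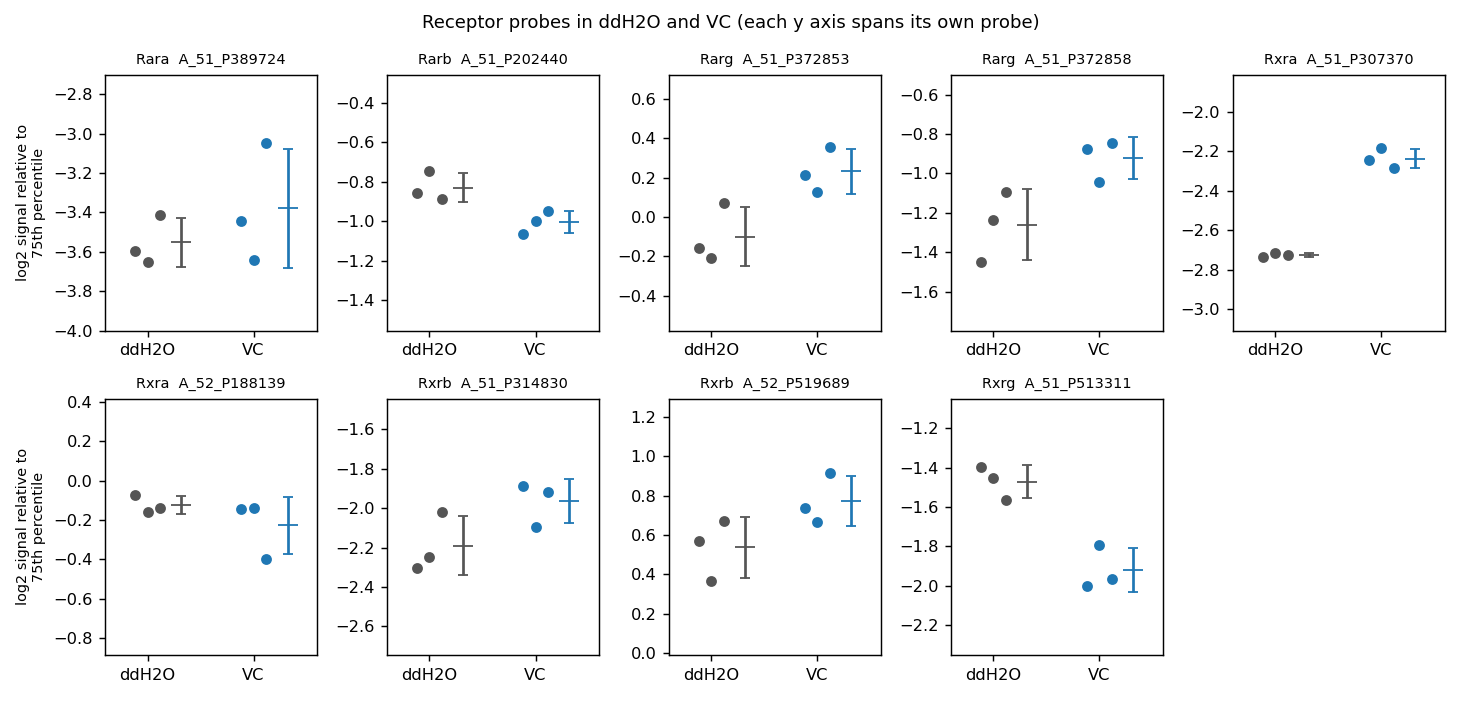
Each panel plots 1 receptor probe on the VC and ddH2O arrays, with its log2 signal relative to the array's 75th percentile on a y axis that spans that probe only. Points are the 3 samples of a group, and the bars are the mean and 1 SD. Rxra A_51_P307370 and Rxrg A_51_P513311 are the called probes (0.49 and -0.45), and Rara, Rxrb and Rxra A_52_P188139 have groups that overlap.

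The VC arrays lay on 3 slides, of which 1 held both groups (ddH2O replicates 2 and 3, VC replicates 1 and 2). On that slide the difference was 0.51 for Rxra A_51_P307370 and -0.39 for Rxrg A_51_P513311. Between the remaining arrays, ddH2O replicate 1 and VC replicate 3, it was 0.45 and -0.57. Each of these arrays lay on a slide of its own, so slide and treatment cannot be told apart between them. The uncalled Rara probe had -0.01 on the shared slide and 0.55 on the remaining arrays, and Rarb A_51_P202440 had -0.21 and -0.09. With slide as a fixed block, limma called 0 of 28160 probes, although 6067 had an unadjusted p under 0.05, 2 of them receptor probes. With slide as a random block 972 probes were called higher and 1631 lower, and both receptor calls were kept, Rxra at 0.49 (limma adjusted p = 0.0137) and Rxrg at -0.44 (limma adjusted p = 0.031). The Rxra call was lost when ddH2O replicate 1, ddH2O replicate 2 or VC replicate 1 was left out, and in each of these 3 fits limma called no probe at all (5823 to 6261 probes, 3 of them receptor probes, had an unadjusted p under 0.05). The Rxrg call was lost without ddH2O replicate 1, 2 or 3 and without VC replicate 1 or 3. With a normexp background correction that left out spots of high local background, Rxra A_51_P307370 stood at 0.23 and was not called.

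Genes around the receptors were described by lists, with each gene taken at its brightest probe. Over all genes tested, 34.8% were called higher and 40.8% lower in RA, with a median log2 difference of -0.07. In VC 3.18% were called higher and 7.14% lower, with a median of -0.00. An unadjusted limma p under 0.05 was common in VC, at 8078 of 28160 probes. With brightest probes alone fitted, it was 5035 of 14531 genes. These shares and counts are the background for every list below, and no list was tested as a whole.

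The other receptors that use RXR as a partner showed no common direction in RA. Of 10 tested, 4 were higher, 4 lower and 2 not called, with a median log2 difference of -0.04. The orphan receptor gene Nr4a2 was higher by 1.94 (SE 0.12, limma adjusted p = 3.55e-05), with 1.95 on a second probe, and the fatty acid receptor gene Ppara by 1.18 (SE 0.09, limma adjusted p = 7.79e-05). Nr4a1, a close relative of Nr4a2, was lower, with a difference of -2.00 (SE 0.14, limma adjusted p = 5.53e-05). The vitamin D receptor gene Vdr had a difference of -0.84 (SE 0.17, limma adjusted p = 0.00493), but it was well above background on 1 of 3 RA arrays, and with a normexp background correction it stood at 0.34. In VC limma called none of 10 partners, 1 of which had an unadjusted p under 0.05.

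Genes of the corepressor complex were split as well. In RA 4 of 10 were higher, 2 lower and 4 not called, with a median of 0.19. Nrip1, a corepressor that binds liganded receptors, was higher by 2.44 (SE 0.15, limma adjusted p = 3.66e-05), and Lcor, which also binds liganded receptors, by 0.83 (SE 0.22, limma adjusted p = 0.0161). The Lcor call was lost without DMSO replicate 3 (0.75), and with the array median (0.49), quantile normalization (0.52), the series values (0.55) and the spike-in controls (0.34). Sin3a, a scaffold of histone deacetylase complexes, was lower, with a difference of -0.99 (SE 0.09, limma adjusted p = 0.000156). Ncor1, the corepressor of unliganded RAR, was lower, with a difference of -0.70 (SE 0.09, limma adjusted p = 0.00069) on its brightest probe and -0.84 on a second, while the remaining probe had 0.23 and was not called. In VC limma called none of 10, 2 of which had an unadjusted p under 0.05.

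Among the coactivators 4 of 10 were higher in RA, 5 lower and 1 not called, with a median of -0.17. Crebbp, a histone acetyltransferase gene, was higher by 3.06 (SE 0.07, limma adjusted p = 1.08e-06), and its relative Ep300 by 0.60 (SE 0.08, limma adjusted p = 0.000638), which was 0.12 and not called with the spike-in controls. The acetyltransferase gene Kat2b was lower, with a difference of -2.31 (SE 0.22, limma adjusted p = 0.000213) and the p160 coactivator gene Ncoa3 likewise, with a difference of -1.20 (SE 0.11, limma adjusted p = 0.000185), with -1.25 on a second probe. In VC 1 of 10 was called, Ncoa3, which was higher by 0.33 (SE 0.06, limma adjusted p = 0.0352). Its other probes had 0.42, also called, and 0.27, not called. The Ncoa3 call was lost whichever sample was left out (adjusted p from 0.0578 to 0.126), and under the planned normexp it stood at 0.018.

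Genes that make, carry and clear the ligand rose with Rarb in RA. Of 14 tested, 13 were higher and 1 lower, with a median of 3.13. Cyp26c1, among the 13, was well above background on 0 DMSO arrays and 3 RA arrays. It passed the filter only through RA, so its rise adds no support. Cyp26b1 and Cyp26a1, which encode the enzymes that oxidise RA for removal, were higher by 9.95 (SE 0.17, limma adjusted p = 5.13e-07) and 8.34 (SE 0.08, limma adjusted p = 2.9e-07). The retinal reductase gene Rdh11 was the member that fell, by 0.89 (SE 0.07, limma adjusted p = 0.000115). In VC 2 of 12 were lower and none higher, with a median of -0.19. These were Cyp26b1 at -0.60 (SE 0.10, limma adjusted p = 0.0255) and Rdh11 at -0.44 (SE 0.07, limma adjusted p = 0.0222), and 6 of the 12 had an unadjusted p under 0.05. The calls of Cyp26b1 and Rdh11 were each lost when any 1 of ddH2O replicates 1, 2 and 3 and VC replicates 1 and 3 was left out, with adjusted p up to 0.0927 for Cyp26b1 and 0.101 for Rdh11, and Cyp26b1 turned to 0.58 under the planned normexp.

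All 19 genes of a list of textbook RA-induced genes were higher in RA, with a median of 5.28. This list shares Cyp26a1 and other members with the list before it, and earlier results on these samples were known when it was written, so it is not independent evidence of direction. Zfp703, a transcriptional regulator, was higher by 7.40 (SE 0.07, limma adjusted p = 2.9e-07). In VC 16 of 17 were not called, 8 of 17 had an unadjusted p under 0.05, and the median was -0.22. Foxa1, a pioneer factor of endoderm, was lower, with a difference of -0.79 (SE 0.15, limma adjusted p = 0.0366). The Foxa1 call was lost whichever sample was left out (adjusted p from 0.0606 to 0.113), and under the planned normexp the value turned to 0.69.

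Other nuclear receptors, outside the 6 receptors and the list of RXR partners, divided evenly in RA. Of 21 tested, 7 were higher, 7 lower and 7 not called, with a median of -0.00. The orphan receptor genes Nr2f1 and Nr2f2 were higher by 8.74 (SE 0.13, limma adjusted p = 4.75e-07) and 7.04 (SE 0.14, limma adjusted p = 6.75e-07). Nr0b1 and Esrrb, nuclear receptors of the pluripotent state, were lower, with differences of -6.72 (SE 0.09, limma adjusted p = 3.64e-07) and -5.96 (SE 0.09, limma adjusted p = 4.75e-07). In VC 1 of 19 was called, Esrrb, which was higher by 0.40 (SE 0.07, limma adjusted p = 0.0258). The Esrrb call was lost whichever sample was left out (adjusted p from 0.0508 to 0.109), and under the planned normexp it stood at 0.071.

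Genes that share the DR5 letters of the Rarb promoter did not all share its direction. Across 27025 genes with a promoter window, 31 held a DR5, and 7 of these were tested in RA. The repeats of those 7 genes are shown with half-sites in capitals, each read in the direction in which its half-sites match, so that they can be set beside their differences.

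Rarb: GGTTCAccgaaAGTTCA
Cyp26a1: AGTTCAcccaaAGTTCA
Ppbp: AGGTCAgacctAGGTCA
Hbb-y: AGGTCAtgggaGGGTCA
Prss27: AGTTCAgggccGGGTCA
Blvrb: AGTTCAaagccAGTTCA
Cfap45: AGTTCAagccaGGTTCA

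These genes were picked for their promoter letters after earlier results were known. In RA 5 of the 7 were higher and 2 lower. Cyp26a1 (8.34), the platelet chemokine gene Ppbp (5.26) and Rarb (4.27) rose most. The embryonic globin gene Hbb-y (1.18) and the serine protease gene Prss27 (1.09) rose less, and the biliverdin reductase gene Blvrb (-1.53) and the cilium gene Cfap45 (-1.17) were lower. In VC 1 of 8 tested was called, the prokineticin receptor gene Prokr2, which was lower, with a difference of -0.82 (SE 0.18, limma adjusted p = 0.0441), and 7 were not called.

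The genes most like each receptor were found over the 6 arrays of RA and DMSO, from log2 values each taken minus its DMSO mean, by the root mean square difference among 16003 genes. With only 2 groups, such likeness reflects the size of the RA difference and the spread between samples. Few genes followed Rarb and Rarg. Nearest to Rarb were Fndc5, the irisin precursor gene, at 0.0526, Cd248, the endosialin gene, at 0.0567, and Dgkk, a diacylglycerol kinase gene, at 0.0738, and 6 genes lay within 0.1. Nearest to Rarg were Tet1, the 5-methylcytosine dioxygenase gene, at 0.0707, Nphs1os at 0.0862 and Ccdc92b at 0.0949, and 7 genes lay within 0.1.

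Rara and Rxrb, with smaller differences, had many more genes as close. For Rara these were led by Mtarc2 (0.0132), a mitochondrial reductase gene, Helq (0.0244), a DNA repair helicase gene, and Tprn (0.0323), with 481 within 0.1. For Rxrb they were Arhgap35 (0.0229), Npb (0.0302), which encodes neuropeptide B, and Arid2 (0.0317), a chromatin remodelling gene, with 501 within 0.1. Rxrg A_55_P2044359 had Msantd1 (0.0299), Syp (0.0301), the synaptophysin gene, and Tmem181a (0.0359), with 139 within 0.1. Rxra A_51_P307370 had Olfr521 (0.0553), an olfactory receptor gene, Inha (0.0564), the inhibin alpha gene, and Krt86 (0.0625), a keratin gene, with 52 within 0.1. The Rxra and Rxrb differences were alike, at 0.36 and 0.35. The SDs in DMSO and RA were 0.12 and 0.18 for this Rxra probe and 0.07 and 0.05 for Rxrb.

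The labelled cell type was checked against its markers, and these moved with the receptor changes in RA. All 9 pluripotency markers were well above background on all 12 arrays. Each sum here and in VC adds unlogged signals of different probes, so the brightest probes weigh most. In these RA and DMSO sums the brightest pluripotency marker in DMSO was Dppa5a (mean log2 level 8.39). The brightest fibroblast marker in RA was Col1a2 (5.11). Among blood and endothelial markers it was Kdr (3.23 in DMSO and 3.50 in RA). The summed level of the pluripotency markers relative to the 75th percentile was 565.7 to 583.0 in DMSO and 83.8 to 93.2 in RA, and all 9 fell. Summed neuroectoderm markers went from 4.07 to 4.19 in DMSO to 30.1 to 32.2 in RA, with 7 of 7 above background in both groups, and 6 rose while Zic1 fell (-1.11). Primitive endoderm markers went from 0.840 to 0.879 in DMSO to 4.40 to 4.83 in RA, with 7 of 7 above background in RA and 6 or 7 in DMSO, and all 7 rose. Fibroblast markers went from 1.98 to 2.14 in DMSO to 38.1 to 40.8 in RA, with 6 and 7 of 10 above background, and Fap, Lum and Postn on none of these arrays. Of 7 fibroblast markers tested, 6 rose and Thy1 fell (-1.48). Twist2, among the 6, was well above background on 0 DMSO arrays and 3 RA arrays. It passed the filter only through RA, so its rise adds no support. Blood and endothelial markers summed to 9.80 to 10.6 in DMSO and 10.3 to 15.9 in RA, with Cdh5 never above background. Of 5 of these blood and endothelial markers tested, 3 rose, among them Tie1 (2.90) and Ptprc (2.11), Pecam1 fell (-1.51), and Kdr was not called (0.26). Ptprc was well above background on 1 DMSO array and 3 RA arrays. The part of any of these shifts in the receptor changes was not tested.

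In VC the pluripotency markers summed to 598.3 to 648.0, and to 560.6 to 641.0 in ddH2O, and 3 of 9 were called higher. Fibroblast markers summed to 2.56 to 2.74 in VC and 3.31 to 3.67 in ddH2O, with Fap and Lum above background on no array, and of 7 tested only Thy1 was called, lower (-0.61). Blood and endothelial markers summed to 0.760 to 0.826 in VC and 1.12 to 1.20 in ddH2O, with Cdh5 and Ptprc above background on no array, and of 3 tested only Cd34 was called, lower (-0.99). Neuroectoderm markers summed to 1.41 to 1.48 in VC and 1.58 to 1.69 in ddH2O, and primitive endoderm markers to 0.637 to 0.669 and 0.658 to 0.700. Their part in the Rxra and Rxrg differences was not tested.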

How the data were processed

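Scanner files hold a processed intensity for each spot, beside its median signal and local background. Agilent Feature Extraction had subtracted background from the processed intensity (version 10.7.3.1 per the file headers, 10.7 per the submitters' processing notes). The authors' log2 values for each probe, deposited in series tables with no stated normalization, served as an alternative. Processed intensities were put on a log2 scale and each array was set to the 75th percentile of its non-control spots. Outlier spots were dropped, and replicate spots of a probe averaged. Probes well above background on at least 3 of 6 arrays were tested, 37050 for RA and 28160 for VC. The share of probes well above background ran from 60.9% to 65.6% over the arrays of RA and DMSO and from 67.0% to 70.3% over those of VC and ddH2O. The number of arrays limits the precision. Accessions were named through a RefSeq table for GRCm38.p6, used for names alone. Of the probes on the RA design 27235 matched a symbol, and on the VC design 27479. Each design was fitted alone with limma 3.58.1 (lmFit and eBayes) in R 4.3.3 and checked on simulated data. Alternatives were other scalings, background corrections, filters, variance models, blocks and left-out samples. The mean signal was not used here, so normexp (offset 50) ran on the median signal. Promoter sequences come from RefSeq, GRCm38.p6.

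All receptor probes are named. Each list names up to 2 rises and 2 falls, the largest called with groups that do not overlap, and each receptor the 3 genes most like it. The members and lists were chosen with earlier results of these data known.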

Additional observations from a re-analysis of the deposited data

Results flagged for a closer look

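Rarb and Rarg had differences of opposite sign in the 2 treatments, with all 3 treated samples on 1 side of all 3 controls each time, although neither passed the test in VC. The genes were picked for this contrast, and such separation was common over all probes tested. In RA it held for 38.5% of probes above and 38.6% below, and in VC for 18.4% above and 18.2% below. Rarb was 4.27 higher on the log2 scale in RA (A_55_P1962154) and stood at -0.17 in VC (A_51_P202440, limma adjusted p = 0.151), where the planned normexp gave 0.12. Without spots of high local background, normexp gave -0.13 for Rarb in VC. Rarg stood at -3.66 in RA (A_55_P2151056) and at 0.33 in VC (A_51_P372853, limma adjusted p = 0.0938). The difference between the treatments was not tested, because the treatments were on different array designs with different probes of these genes.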

How the results depend on the processing

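Of 10 receptor probes in RA, 8 kept direction and call in every alternative run for them (18 in all, of which 1 covers only a gene's brightest probe), and in VC 3 of 9 did so (20 in all). The 18 are not all separate checks. In RA both normexp fits called 19760 probes higher and 11301 lower. The series values called 11604 higher and 13115 lower, close to quantile normalization at 11603 and 13157. In RA, Rxra A_51_P307370 reversed to -0.12 and Rxrb A_55_P2008609 to -0.13 with the spike-in controls. So did their neighbours Olfr521 (-0.15), Inha (-0.11), Krt86 (-0.054), Arhgap35 (-0.15), Npb (-0.10) and Arid2 (-0.13), and with the array median Olfr521 (-0.0039) and Arhgap35 (-0.012). Vdr A_52_P334562 stood at 0.34 with either normexp fit. Over all probes in RA, 6564 were higher with the spike-in controls, 22637 without the filter and 5743 with 1 probe per gene, which leaves fewer to test (6746 lower, with 2 receptor probes lower). List genes higher in RA numbered 46 in the main setting and 30 with the spike-in controls. Of the calls in RA 50.3% were higher, and 34.0% with the median, 27.1% with the spike-in controls and 63.6% with normexp or no filter.

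Calls in VC were fragile. With the planned normexp, no filter, the replicate block or slide as a fixed block, limma called 0 probes higher and 0 lower in VC, so 0 receptor probes and 0 list genes, while 278, 7634, 7644 and 6067 probes had an unadjusted p under 0.05 (0, 4, 5 and 2 of them receptor probes). The planned normexp had Rxrg A_51_P513311 at 0.14, Cyp26b1 at 0.58 and Foxa1 at 0.69. Its fitted background means were -303 on ddH2O replicate 2 and -380 and -857 on VC replicates 1 and 2. On the other arrays they were -6.26, -4.27 and -3.49. Leaving out spots of high local background gave -21.7 for ddH2O replicate 2, -2.87 and -5.78 for VC replicates 1 and 2, and -0.34 for Rxrg. All planned normexp values in VC rest on the first fit, so they are a weak check. Without spots of high local background, chosen after seeing the data, 188 probes were higher and 355 lower, with 0 receptor probes (4 at an unadjusted p under 0.05) and 1 list gene each way. Probes higher numbered 836 and lower 1497 in the main setting, 1396 higher with the median (56.4% of calls, against 35.8%), 1855 higher with a variance trend (46.6%) and 926 lower with the spike-in controls (45.5% higher). Receptor probes higher were 0 with 1 probe per gene (3 of 6 at an unadjusted p under 0.05) and 2 with the trend. List genes higher were 2 and lower 3, against 5 higher with the median, 5 and 5 with the filter on all 6 arrays, 8 and 9 with 1 probe per gene and 10 and 7 with the trend. With each sample left out, receptor probes higher ranged from 0 to 1 and lower from 0 to 1, all probes higher from 0 to 266 and lower from 0 to 772, and list genes higher from 0 to 1 and lower from 0 to 2. In RA these ranges were 5 to 6 and 4 to 4, 11954 to 13460 and 11656 to 13753, and 43 to 46 and 17 to 19.

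Probe pairs moved in size and none that was clear of 0 changed sign. In RA, Rara gave -0.55 with quantile normalization, -0.22 with normexp and -0.60 with the series values, Rarb 1.21 and Rxra -0.36 with normexp, and Rxrg -1.87 with quantile normalization, -1.30 with normexp and -1.86 with the series values. In VC, Rarg gave -0.16, Rxra 0.81 and Rxrb 0.40 with normexp, and Rxra 0.31 without high-background spots and 0.50 with the slide block. The cause of these shifts was not tested.

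Samples with the same replicate number did not deviate together (correlations -0.07 to 0.05). Such values, from 3 samples per group, cannot show whether the samples were handled as pairs. With the replicate block, RA had 12711 probes higher and 12341 lower, with 6 and 4 receptor probes. No slide term could be fitted for RA, where each slide held 1 group.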
